A study of Mus musculus with 25 samples.

Results

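The comparison set gonadal white adipose tissue after 4 weeks of a low-fat diet (LFD) against the same tissue at the chow-fed baseline. It held all 4 LFD arrays of that time point and both chow arrays of the series, 6 of 25 arrays, chosen by the diet and time in their titles. The mice were male and heterozygous for the ApoE3L.CETP transgenes, which bring in a human APOE variant together with human CETP and so shift lipoprotein metabolism towards the human pattern. The controls carried the same transgenes. Chow mice were 12 weeks old. LFD mice were 16 weeks old and had eaten a purified diet with 10% fat, 70% carbohydrate and 20% protein since the age of 12 weeks. Age and diet therefore changed together between the groups and cannot be told apart. A high-fat diet group of the same age (HFD, 3 arrays, 60% fat, 20% carbohydrate, 20% protein and 0.25% cholesterol) is given beside the LFD arrays where it helps to place a value. Each array was a biological replicate according to its label.

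Adipocytes of visceral fat store triglyceride that they take up from lipoproteins or build from glucose. Synthesis from glucose runs through citrate to cytosolic acetyl-CoA, which acetate can supply as a separate source. Fatty acids are then built with NADPH from malic enzyme and the pentose phosphate pathway, and the pathway ends with acylation of glycerol. Insulin and carbohydrate are known to raise this pathway through SREBP-1c and ChREBP, while SREBP-2 raises sterol synthesis when cell cholesterol is low. Adipocytes also secrete hormones and acute phase proteins, such as leptin and the orosomucoids.

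The 2 chow arrays differed from each other more than most LFD arrays did. Gpx5, a glutathione peroxidase of the epididymis, the organ that lies against this fat pad, had log2 levels of 13.60 and 3.69 in chow arrays 1 and 2. In LFD arrays 1 to 4 its levels were 9.13, 6.53, 3.72 and 3.86, so LFD array 1 and, less so, LFD array 2 also held this transcript. The mean of 26 epididymis genes was 10.78 in chow array 1 and 4.28 in chow array 2, against 5.43, 4.44, 4.24 and 4.14 in the LFD arrays. HFD array 1 had 8.91. Chow array 2 stood apart in another way. The mean of 25 exocrine pancreas genes, a list written after the values had been seen, was 5.51 there and at most 4.43 in each of the other 24 arrays. Adipocyte markers were present in every array: the mean of 16 mature adipocyte genes was 10.67 in chow array 1, 11.81 in chow array 2, and 11.47, 11.85, 11.89 and 11.90 in the LFD arrays. Chow array 1 was the lowest of these. The mean of 25 hepatocyte genes was 5.14 and 5.40 in the chow arrays and 7.37, 6.24, 5.37 and 5.99 in the LFD arrays. Alb, the serum albumin gene of hepatocytes, was at 6.53 and 6.60 in the chow arrays and at 11.64, 9.65, 7.07 and 10.10 in the LFD arrays. Array medians lay between 5.04 and 5.36. Across transcript clusters the chow arrays correlated with each other at 0.93, and LFD pairs at 0.946 to 0.992. In bulk tissue, fewer cells of a type and less RNA per cell cannot be told apart.

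**Figure D1:**
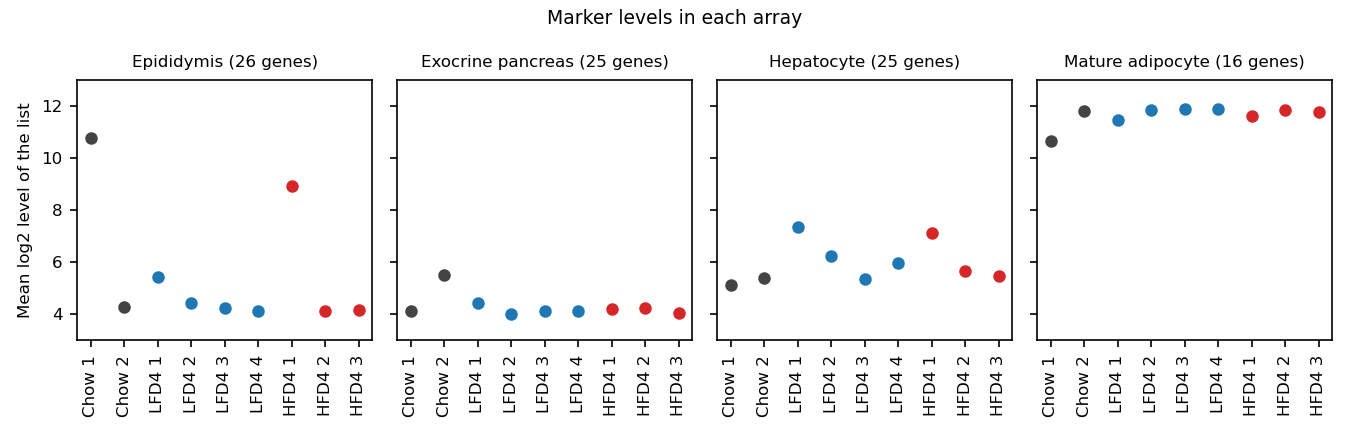
Mean log2 level of 4 marker lists in the chow arrays (grey), the LFD arrays at 4 weeks (blue) and the HFD arrays at 4 weeks (red), 1 point per array. Chow array 1 (10.78) and HFD array 1 (8.91) stood high for epididymis genes, chow array 2 (5.51) for exocrine pancreas genes and LFD array 1 (7.37) for hepatocyte genes.

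Since each chow array carried transcripts of another tissue, the comparison was run in 2 ways. The first used all arrays. The second left out chow array 1, LFD array 1 and HFD array 1, so that LFD arrays 2 to 4 were set against chow array 2 alone, whose spread was assumed to be that of arrays in other groups. In addition, 320 genes were set aside as epididymis-marked, because they stood at least 1 (log2) higher both in chow array 1 than in chow array 2 and in HFD array 1 than in HFD arrays 2 and 3. Their median LFD minus chow difference was -2.04 with all arrays and 0.02 without the epididymis arrays. Since the rule picks genes high in chow array 1, this contrast follows at least in part from the selection. Of these genes, 6 were called, all lower: Asb11, BC106175, Defb43, Gm4926, Gpr82 and Tmem238l, named here because they are few. They are not described further.

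With all arrays, limma's moderated test called 343 of 22180 genes (1.55%) at a Benjamini-Hochberg adjusted p under 0.05, 237 higher (1.07%) and 106 lower (0.478%) under LFD. Without the epididymis arrays it called 63 (0.284%), 43 higher (0.194%) and 20 lower (0.0902%). Called both ways, in the same direction, were 23 genes (0.104%), and all 23 were higher under LFD. In 3139 genes (14.2%) all LFD arrays lay above both chow arrays or all lay below both, 1944 higher (8.76%) and 1195 lower (5.39%). The median difference over all genes was 0.03 with all arrays and 0.00 without the epididymis arrays. All 337 called genes that were not set aside kept their sign without the epididymis arrays, and 230 of them kept at least 0.5 of the size. Since the second comparison used part of the same arrays, a kept sign is no independent check. Chow array 1 lay below chow array 2 for 212 of the 237 genes called higher, against 56.3% of all genes, and above it for 101 of the 106 called lower. The count depended on single arrays: it was 29 without chow array 1, 4098 without chow array 2, 697 without LFD array 1, and 142, 91 and 67 without LFD arrays 2, 3 and 4. Of 55 genes named below as rising or falling with all arrays, 46 lost their call without chow array 1, 3 without chow array 2, 4 without LFD array 1, and 22, 31 and 35 without LFD arrays 2, 3 and 4. The 9 that did not need chow array 1 were Ptger3, Tmem45b, Mtarc1, Orm1, Slc22a4, Hfe, Fgf1, Tmem255a and Klri2. With the 6 arrays fitted alone, limma called 0 genes, although 3837 genes had an unadjusted p under 0.05 in the fit of all arrays.

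**Figure D2:**
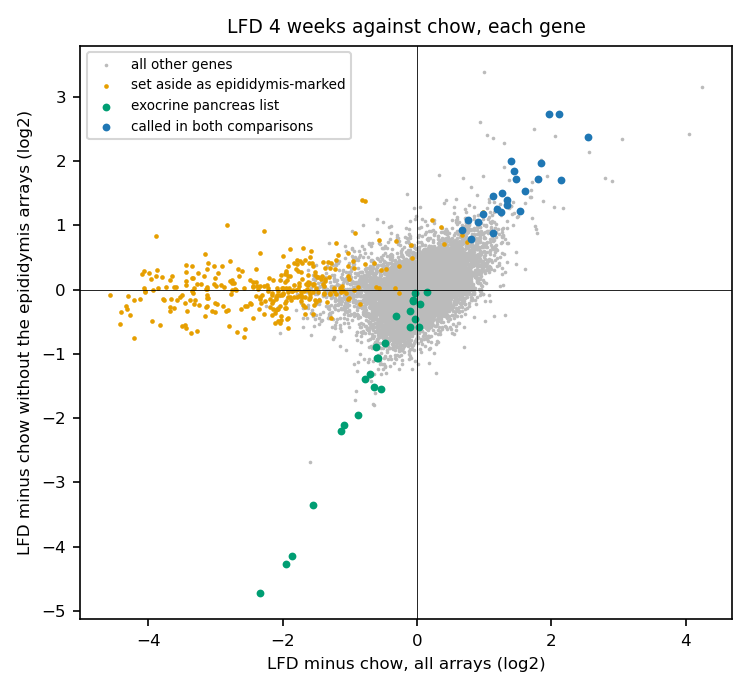
LFD minus chow difference (log2) of each of 22180 genes with all arrays (horizontal) and without the epididymis arrays (vertical), 1 point per gene. Set-aside genes (orange) spread to the left around a height of 0, with a median of -2.04 across and 0.02 up, pancreas genes (green) reach down to -4.72, and the 23 genes called both ways (blue) lie at the upper right.

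Of the 23 genes called both ways, 7 were also called whichever of the 6 arrays was left out: Ptger3, Tmem45b, Mtarc1, Orm1, Slc22a4, Hfe and Fgf1. This count is a description of how firmly they were called. Ptger3, which encodes the EP3 receptor through which prostaglandin E2 restrains lipolysis in adipocytes, had log2 levels of 7.77 and 8.50 in the chow arrays and 10.04, 10.43, 10.87 and 11.35 in the LFD arrays. The lowest LFD array lay well above the higher chow array. It rose by 2.54 ± 0.25 (SE, 5.81-fold, adjusted p = 1.57e-05 by limma), and the difference was 2.38 ± 0.27 without the epididymis arrays (adjusted p = 1.25e-04). Orm1, which encodes the acute phase protein orosomucoid 1 made by liver and fat, had 8.23 and 8.47 under chow and 10.06, 10.14, 10.10 and 10.33 under LFD. Orm1's groups did not overlap, as the rule for the 10 largest rises required, and the arrays within each group lay close together. It rose by 1.81 ± 0.17 (3.5-fold, adjusted p = 1.05e-05 by limma) and by 1.72 ± 0.23 without the epididymis arrays (adjusted p = 8.65e-04). The hepatocyte means of LFD arrays 1 to 4 were 7.37, 6.24, 5.37 and 5.99, against 5.14 and 5.40 in the chow arrays. The part of hepatocyte transcripts in the rise was not tested.

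Orm2 and Orm3 encode near-identical orosomucoids, so the split of signal between the 3 genes is uncertain. Orm3 had 5.74 and 6.73 under chow and 8.53, 8.70, 8.93 and 8.99 under LFD, and rose by 2.55 ± 0.40 (adjusted p = 0.00365 by limma). Orm2 had 4.36 and 4.25 under chow and 5.78, 6.19, 5.94 and 6.67 under LFD, and rose by 1.84 ± 0.37 (adjusted p = 0.0200). Both stood higher in every LFD array than in either chow array. Without the epididymis arrays the differences were 2.14 ± 0.51 and 2.02 ± 0.50, neither of which was called (adjusted p = 0.0981 and 0.110).

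Tmem45b, a transmembrane protein gene, had 8.20 and 9.37 under chow and 10.46, 11.25, 10.70 and 11.29 under LFD, and rose by 2.14 ± 0.26 (4.41-fold, adjusted p = 1.70e-04 by limma). Mtarc1, which encodes a molybdenum enzyme of the outer mitochondrial membrane, had 5.91 and 5.14 under chow and 6.94, 7.79, 7.56 and 8.26 under LFD, and rose by 2.11 ± 0.39 (4.32-fold, adjusted p = 0.0125). The differences without the epididymis arrays were 1.71 ± 0.25 and 2.73 ± 0.49 (adjusted p = 0.00199 and 0.0114). Neither gene's groups overlapped, as the rule for the 10 largest rises required. In Mtarc1 chow array 1 was the higher of the chow arrays, unlike in Tmem45b. Fgf1, a growth factor that adipose tissue uses in its remodelling, had 7.67 and 7.60 under chow and 9.16, 8.85, 8.98 and 8.93 under LFD. Its arrays were tight in both groups, and it rose by 1.34 ± 0.15 (2.54-fold, adjusted p = 6.98e-05). Slc22a4, a carrier of organic cations and ergothioneine, had 5.51 and 6.12 under chow and 6.72, 7.53, 7.80 and 7.66 under LFD, and rose by 1.61 ± 0.21 (3.06-fold, adjusted p = 6.43e-04). Hfe, whose product restrains iron uptake through the transferrin receptor, had 7.27 and 8.08 under chow and 8.88, 9.19, 9.26 and 9.48 under LFD. It rose by 1.53 ± 0.20 (2.88-fold, adjusted p = 6.03e-04). In Slc22a4 and Hfe, LFD array 1 was the lowest LFD array and still lay above both chow arrays. For Fgf1, Slc22a4 and Hfe the differences without the epididymis arrays were 1.32 ± 0.19, 1.54 ± 0.18 and 1.23 ± 0.22 (adjusted p = 0.00200, 1.38e-04 and 0.0101).

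Another 5 of the 23 genes lost their call only when chow array 1 was left out: Paqr9, Unc119, Me1, Pqlc3 and Dgat2. Paqr9, a membrane receptor family gene, had 5.86 and 6.28 under chow and 6.90, 8.32, 8.16 and 8.28 under LFD, and rose by 1.84 ± 0.34 (adjusted p = 0.0125 by limma). Unc119, a chaperone of lipid-modified proteins, rose by 1.33 ± 0.20 (adjusted p = 0.00338), and Pqlc3 by 1.25 ± 0.21 (adjusted p = 0.00581). Paqr9, Unc119 and Pqlc3 had differences without the epididymis arrays of 1.97, 1.39 and 1.20 (adjusted p = 0.0151, 0.00199 and 8.51e-04). The remaining named genes of the 23 were Acss2, Insig1 and Pgd, described with lipid synthesis, and Odf3l1, Adap1, Olfm1, Kank2, Tmem255a and Klri2, with differences of 0.66 to 1.47. A further 2 carried an olfactory receptor or provisional name. Olfm1 was the only 1 of the 23 whose groups overlapped, with 7.55 in chow array 2 and 7.48 in LFD array 1. LFD array 1 was the lowest LFD array in 20 of the 23 genes.

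The HFD arrays at 4 weeks gave these genes a second reading at the same age, although HFD minus chow shares the chow arrays and so is given as values only. In all 23 genes the HFD mean lay on the LFD side of the chow mean. Ptger3 had 11.09, 10.92 and 11.14 under HFD, and Orm1 had 10.35, 10.44 and 10.36. HFD minus LFD, which does not use chow, was called in 47 genes (0.212%), of which Paqr9 was the only 1 among the 23. Its HFD levels were 9.29, 9.05 and 9.86, higher than LFD by 1.49 (adjusted p = 0.0378 by limma). Without the epididymis arrays that difference was 1.20 and not called. For Ptger3 and Orm1 the HFD minus LFD differences were 0.38 and 0.23 (adjusted p = 0.648 and 0.692). The later LFD groups were 20 weeks old at 8 weeks of diet, and 34 weeks old by their label at 12 weeks of diet, an age that does not match 12 weeks of diet begun at the age of 12 weeks. At these times the LFD minus chow difference of Ptger3 was 3.01 at 8 weeks and 3.22 at 12 weeks, that of Orm1 2.17 and 2.06, and that of Fgf1 1.41 and 1.39, all against the same 2 chow arrays.

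**Figure D3:**
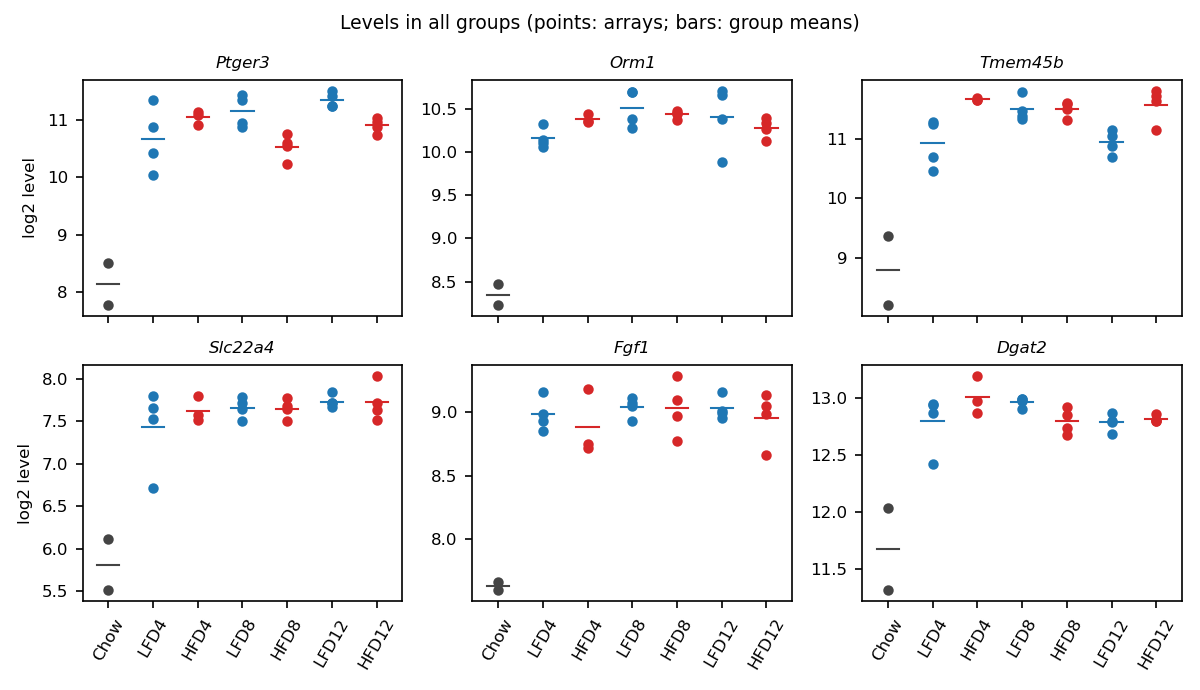
Log2 level of 6 genes called both ways in each of the 25 arrays by group (grey chow, blue LFD, red HFD, with weeks on diet in the group name), with bars at group means. The axes do not start at 0. In each panel both chow arrays lie below every other array, for example Orm1 at 8.23 and 8.47.

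Among the 10 largest rises with groups that did not overlap were also Lctl and Gpm6a. Lctl, a lactase-like family gene, had 4.13 and 5.28 under chow and 5.39, 7.19, 6.61 and 7.34 under LFD, so LFD array 1 lay just above chow array 2. It rose by 1.93 ± 0.44 (adjusted p = 0.0331 by limma). Gpm6a, a membrane glycoprotein gene on the mesothelial list, had 7.69 and 8.35 under chow and 10.36, 9.68, 9.90 and 9.63 under LFD, and rose by 1.87 ± 0.46 (adjusted p = 0.0411). Without the epididymis arrays neither was called (adjusted p = 0.110 and 0.491).

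**Figure D4:**
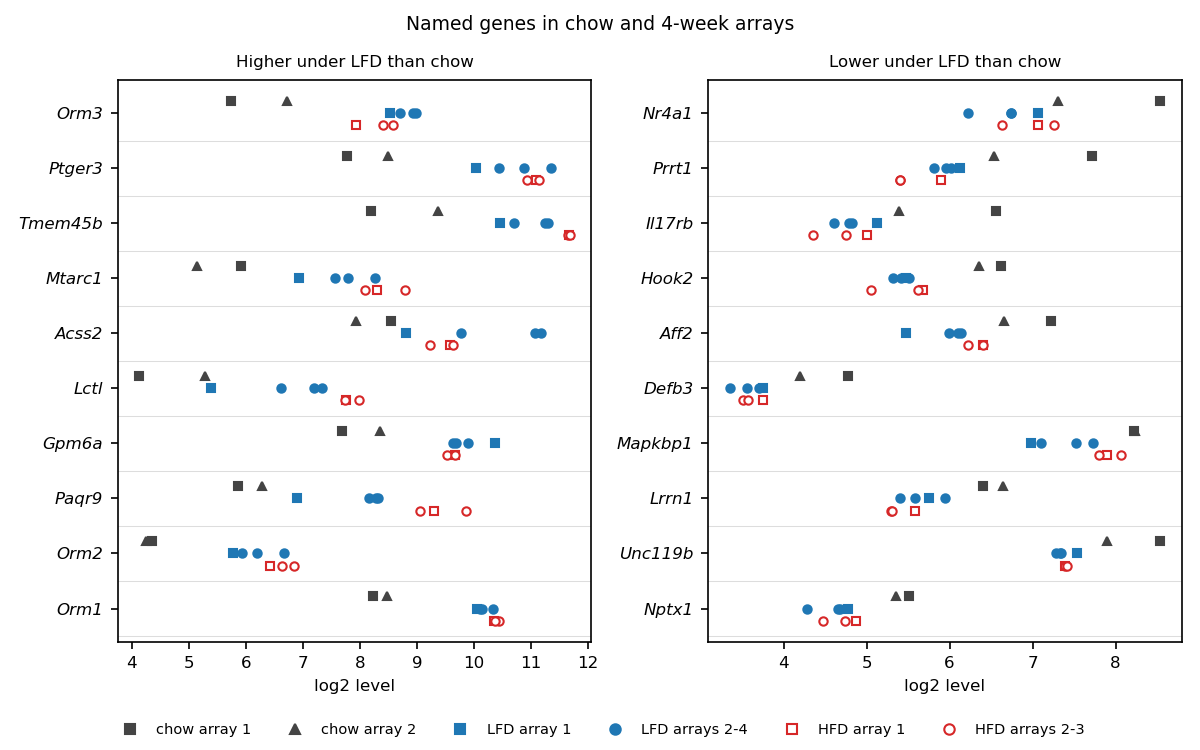
Log2 level in the chow, LFD and HFD arrays at 4 weeks of the 10 genes with the largest rises (left) and the 10 with the largest falls (right) under LFD among called genes whose groups did not overlap, 1 symbol per array. In Orm1 the LFD arrays run from 10.06 to 10.33 and both chow arrays lie under 8.50, while among the falls chow array 1 is the higher chow array in 8 of 10 genes, for example Nr4a1 at 8.54 against 7.31.

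Some genes of the lipogenesis list were called higher with all arrays, and others only when set against chow array 2 alone. In the list of 19 lipogenesis genes, 3 were called higher with all arrays (Acss2, Insig1 and Me1) and 6 without the epididymis arrays (Elovl6, Acss2, Acly, Insig1, Fasn and Me1), and 0 were called lower in either. Over all genes, 1.07% were called higher with all arrays, and 0.194% without the epididymis arrays. The median difference of the list was 0.68 and 0.66, against 0.03 and 0.00 for all genes. Acss2, which makes cytosolic acetyl-CoA from acetate, had 8.55 and 7.94 under chow and 8.80, 9.77, 11.17 and 11.07 under LFD. All LFD arrays were above both chow arrays, as the rule for the 10 largest rises required, array 1 only slightly. Acss2 lost its call without chow array 1, LFD array 3 or LFD array 4. It rose by 1.96 ± 0.44 (adjusted p = 0.0303 by limma), and by 2.73 ± 0.43 without the epididymis arrays (adjusted p = 0.00400). Me1, malic enzyme, which yields NADPH, had 11.28 and 11.23 under chow and 11.84, 12.24, 13.10 and 12.89 under LFD. The chow arrays were alike, and it rose by 1.26 ± 0.23 (2.40-fold, adjusted p = 0.0125), and by 1.51 ± 0.25 without the epididymis arrays (adjusted p = 0.00673).

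The next enzymes of the pathway were less even. Elovl6, the elongase of palmitate, had 11.41 and 7.53 under chow and 9.09, 10.02, 11.17 and 11.59 under LFD. Acly, ATP citrate lyase, had 12.16 and 9.76 under chow and 10.46, 11.71, 12.69 and 12.70 under LFD. In both genes chow array 1 lay inside the LFD range and chow array 2 below it, so the chow arrays differed from each other by more than the group means did. With all arrays neither was called, at 1.00 ± 0.68 for Elovl6 and 0.93 ± 0.53 for Acly (adjusted p = 0.503 and 0.396 by limma). Against chow array 2 alone the differences were 3.40 ± 0.45 and 2.61 ± 0.42 (adjusted p = 8.51e-04 and 0.00459), and without chow array 2 they turned to -0.94 and -0.27. Fasn, fatty acid synthase, had 12.79 and 11.86 under chow and 12.34, 13.34, 13.74 and 13.83 under LFD, so LFD array 1 lay between the chow arrays. Its difference was 0.99 ± 0.27 with all arrays (adjusted p = 0.0618) and 1.78 ± 0.17 without the epididymis arrays (adjusted p = 1.21e-05). Acaca, acetyl-CoA carboxylase, had 10.52 and 10.71 under chow and 10.53, 11.52, 12.32 and 12.37 under LFD. LFD array 1 sat at the chow level and arrays 3 and 4 well above it, and the gene was not called (1.07 ± 0.33, adjusted p = 0.0876). The regulators Srebf1 and Mlxipl, which encode SREBP-1c and ChREBP, had differences of 0.20 ± 0.28 and 0.49 ± 0.26 (adjusted p = 0.792 and 0.332). LFD array 1 was the lowest LFD array for 14 of the 19 genes. It also had the highest epididymis and hepatocyte means of the LFD arrays, and the part of these in its levels was not tested.

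NADPH supply and triglyceride assembly also held called genes. Of all genes, 1.07% were called higher with all arrays, and 0.194% without the epididymis arrays. Of 9 pentose phosphate and NADPH genes, 4 rose with all arrays: Me1, Rpe, Idh1 and Pgd. Pgd, which makes NADPH from 6-phosphogluconate, had 9.96 and 10.14 under chow and 10.21, 10.98, 11.32 and 11.30 under LFD, and rose by 0.90 ± 0.23 (adjusted p = 0.0452 by limma). Without the epididymis arrays Pgd (1.06, adjusted p = 0.0441) and Me1 were called. Rpe rose by 0.77 ± 0.16 and Idh1 by 0.85 ± 0.20 with all arrays, with groups that did not overlap. They were at 0.57 and 0.39 and not called without the epididymis arrays (adjusted p = 0.307 and 0.598). Both calls were also lost without chow array 1, LFD array 3 or LFD array 4, and that of Idh1 without LFD array 2. Pgd lost its call when chow array 1 or LFD array 2, 3 or 4 was left out. Of 16 genes of lipid uptake and triglyceride assembly, Dgat2 and Agpat2 rose and 0 were called lower. Dgat2, which adds the last acyl chain to triglyceride, had 11.31 and 12.03 under chow and 12.42, 12.87, 12.94 and 12.95 under LFD. Every LFD array lay above both chow arrays, and it rose by 1.12 ± 0.16 (2.18-fold, adjusted p = 0.00135) and by 0.89 ± 0.13 without the epididymis arrays (adjusted p = 0.00254). Agpat2, an enzyme earlier in the same pathway, had 10.93 and 11.61 under chow and 11.62, 12.10, 12.27 and 12.48 under LFD, and rose by 0.85 ± 0.19 (adjusted p = 0.0317). LFD array 1 lay just above chow array 2 there, and without the epididymis arrays the difference was 0.67 and not called (adjusted p = 0.144). Leaving out chow array 1 or LFD array 2, 3 or 4 also ended the call.

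Sterol synthesis showed the same division between the chow arrays. Of 19 cholesterol genes, 2 were called higher with all arrays (Sc5d and Insig1) and 5 without the epididymis arrays (Nsdhl, Dhcr7, Lss, Insig1 and Cyp51). Among all genes, 1.07% were called higher with all arrays, and 0.194% without the epididymis arrays. Chow array 1 lay above chow array 2 in 18 of the 19 cholesterol genes, and above all LFD arrays in 6. Insig1, whose product holds SREBP precursors in the endoplasmic reticulum, had 10.52 and 9.70 under chow and 10.95, 11.45, 11.46 and 12.20 under LFD. It rose by 1.41 ± 0.33 (adjusted p = 0.0377 by limma), and by 2.00 ± 0.41 without the epididymis arrays (adjusted p = 0.0367). Its groups did not overlap, but leaving out any array other than LFD array 1 ended the call. Sc5d, a desaturase late in the pathway, had 9.55 and 10.30 under chow and 10.47, 10.99, 10.75 and 11.17 under LFD, and rose by 0.92 ± 0.19 (adjusted p = 0.0246), but was not called without the epididymis arrays (0.67, adjusted p = 0.194). Chow array 1 was here the lower chow array, unlike in the other 18 genes. Lss, which closes the sterol ring, had 7.41 and 5.50 under chow and 6.25, 7.53, 8.01 and 8.19 under LFD. Nsdhl, a later enzyme, had 10.89 and 8.39 under chow and 9.37, 9.77, 10.31 and 10.43 under LFD. The LFD arrays of Nsdhl thus lay between the chow arrays, and its difference was 0.33 ± 0.42 with all arrays (adjusted p = 0.764) and 1.78 ± 0.29 against chow array 2 alone (adjusted p = 0.00624). Hmgcs1, the synthase at the start of the pathway, had 10.00 and 9.93 under chow, 10.12, 10.84, 10.34 and 10.46 under LFD and 11.41, 11.47 and 11.57 under HFD. Its LFD minus chow difference was not called (0.47 ± 0.15, adjusted p = 0.104), and the HFD arrays lay above all of them (HFD minus LFD 1.04, adjusted p = 0.00147).

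**Figure D5:**
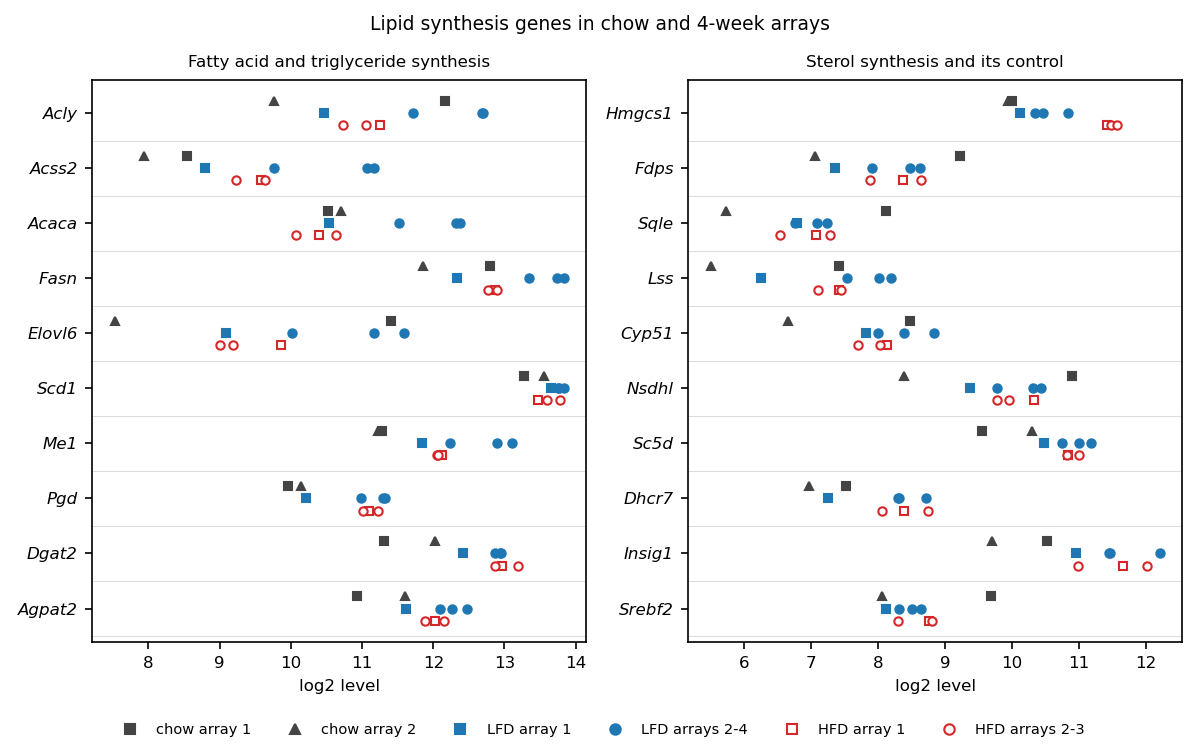
Log2 level in the chow, LFD and HFD arrays at 4 weeks of 10 genes of fatty acid and triglyceride synthesis (left) and 10 of sterol synthesis and its control (right), 1 symbol per array. In Elovl6 the chow arrays lie at 11.41 and 7.53 on either side of most LFD arrays, whereas in Me1 they coincide at 11.28 and 11.23 below all LFD arrays.

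The promoters of the 2 cholesterol genes that rose with all arrays are shown because both hold an E-box, the letters CACGTG, which read the same on both strands and which SREBP and ChREBP family factors are known to contact. Each is the 250 bases before the RefSeq start on the gene's own strand in GRCm38.p6, with the E-box in capitals. Insig1 lies at chr5:28071162-28071411 on the plus strand and Sc5d at chr9:42264301-42264550 on the minus strand.
Insig1: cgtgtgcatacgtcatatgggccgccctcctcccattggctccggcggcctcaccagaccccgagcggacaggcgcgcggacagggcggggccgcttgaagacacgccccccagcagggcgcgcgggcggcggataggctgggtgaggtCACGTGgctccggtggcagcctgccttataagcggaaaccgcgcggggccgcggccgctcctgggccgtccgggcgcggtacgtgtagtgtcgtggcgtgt
Sc5d: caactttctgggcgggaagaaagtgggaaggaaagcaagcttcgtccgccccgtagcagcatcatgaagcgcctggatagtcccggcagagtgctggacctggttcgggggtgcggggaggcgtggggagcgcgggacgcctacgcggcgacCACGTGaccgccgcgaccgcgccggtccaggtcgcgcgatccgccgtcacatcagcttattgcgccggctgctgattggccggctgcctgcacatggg
The first base of the E-box lay 101 bases before the start in Insig1 and 98 in Sc5d. Such a match was found in 4 of 15 cholesterol genes with a promoter window (26.7%), in 4 of 16 lipogenesis genes (25.0%) and in 7.83% of 16990 genes tested with a window. The sterol element TCACNCCAC, searched on both strands, was found in 1 of 15, 1 of 16 and 1.22%. A match describes these letters and is not a binding site shown by these data.

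A few genes of mature adipocytes and their hormones were called with all arrays, and none without the epididymis arrays. Of all genes, 1.07% were called higher with all arrays. All 16 measured mature adipocyte genes had a difference above 0 with all arrays, 2 of which were called, against 8 of 16 above 0 and 0 called without the epididymis arrays. The median of the list was 0.40 and -0.03. Of 14 adipokine and hormone genes, 3 were called with all arrays (Lep, Rbp4 and Apln) and 0 without the epididymis arrays, with medians of 0.44 and 0.02. Lep, leptin, had 10.47 and 11.92 under chow and 12.37, 12.76, 12.17 and 12.56 under LFD, and rose by 1.27 ± 0.27 (adjusted p = 0.0260 by limma). Rbp4, the retinol carrier, had 9.33 and 10.23 under chow and 10.65, 11.07, 11.08 and 11.41 under LFD, and rose by 1.27 ± 0.24 (adjusted p = 0.0125). In both genes all LFD arrays lay above chow array 2, and against it alone the differences were 0.58 and 0.96 and not called (adjusted p = 0.503 and 0.132). Apln, the peptide hormone apelin, rose by 1.44 ± 0.33 (adjusted p = 0.0321) and was not called without the epididymis arrays (adjusted p = 0.172). Adipoq, adiponectin, had 10.62 and 11.80 under chow and 11.57, 11.69, 11.65 and 11.58 under LFD, so chow array 2 was above all LFD arrays. Pparg, the nuclear receptor of adipocyte identity, had 9.25 and 11.06 under chow and 10.57, 10.87, 11.20 and 11.18 under LFD, a difference of 0.80 ± 0.29 with all arrays (adjusted p = 0.140) and 0.02 ± 0.20 without the epididymis arrays. Npr3, a natriuretic peptide clearance receptor, was the only 1 of 14 adipocyte expansion genes called, higher by 1.12 on the log2 scale.

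Some genes of glucose handling rose, while 0 of 19 oxidative phosphorylation genes were called in either comparison. Of 21 genes of mitochondrial fatty acid oxidation, 0 were called higher in either, and Ppargc1a was called lower without the epididymis arrays. Of 24 genes of glucose uptake, glycolysis and glycogen, 3 rose with all arrays, against 1.07% of all genes. None of the 24 was called without the epididymis arrays. Gbe1, the glycogen branching enzyme, had 8.43 and 8.95 under chow and 9.60, 9.65, 10.53 and 10.48 under LFD, and rose by 1.38 ± 0.26 (adjusted p = 0.0130 by limma). Pdha1, a subunit of pyruvate dehydrogenase, rose by 0.84 ± 0.17, and Ldha, lactate dehydrogenase A, by 0.69 ± 0.15. All 3 had groups that did not overlap, and without the epididymis arrays their differences were 1.27, 0.77 and 0.49 (adjusted p = 0.111, 0.189 and 0.326). Slc2a4, the insulin-responsive glucose transporter, had 7.99 and 9.28 under chow and 8.89, 9.48, 9.91 and 9.97 under LFD, and was not called (0.93 ± 0.28, adjusted p = 0.0849). Of 14 thermogenic genes, Cidea and Cox8b rose, while the uncoupling protein gene Ucp1 stayed between 3.81 and 4.20 in all 6 arrays. Cidea, a lipid droplet protein, had 5.64 and 5.66 under chow and 6.54, 6.78, 6.96 and 7.23 under LFD, a rise of 1.23 ± 0.26 (adjusted p = 0.0268). Cox8b, a cytochrome oxidase subunit of muscle and brown fat, had 4.87 and 5.94 under chow and 7.31, 6.68, 7.26 and 7.21 under LFD, a rise of 1.71 ± 0.26 (adjusted p = 0.00298). Both kept differences above 1 without the epididymis arrays (1.33 and 1.11) but were not called there (adjusted p = 0.132 and 0.145). The coactivator gene Ppargc1a was called lower against chow array 2 alone (-0.92 ± 0.19, adjusted p = 0.0441), where that array had 7.62, chow array 1 had 6.35 and the LFD arrays had 6.68 to 6.87.

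Immune, endothelial and mesothelial lists also differed between the chow arrays. All 23 general macrophage genes had a difference above 0 with all arrays and 12 of 23 did without the epididymis arrays, with 0 called in both. The list mean was 7.33 in chow array 1, 8.31 in chow array 2 and 8.15 to 8.53 under LFD. For 18 endothelial genes the numbers above 0 were 18 and 9, with list means of 7.69 and 8.78 under chow and 7.96 to 8.86 under LFD. Of 19 interferon-stimulated genes, 3 rose with all arrays and 10 had LFD arrays above both chow arrays, against 1.07% and 8.76% of all genes. The median of the list was 0.63, and 0.23 without the epididymis arrays, where 0 were called. Gbp3, an interferon-induced GTPase, had 5.15 and 6.52 under chow and 7.82, 7.21, 7.69 and 7.63 under LFD, and rose by 1.75 ± 0.26 (adjusted p = 0.00287 by limma). Ifit1 rose by 1.14 ± 0.22 and Ifit2 by 0.70 ± 0.17. Both belong to the antiviral IFIT family. Gbp3, Ifit1 and Ifit2 were at 0.99, 0.76 and 0.50 without the epididymis arrays and not called (adjusted p = 0.104, 0.326 and 0.520).

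Of 14 mesothelial genes, Gpm6a, Efemp1 and Nkain4 rose and 9 had LFD arrays above both chow arrays, against 1.07% and 8.76% of all genes. The list had a median difference of 1.07, and 0.84 without the epididymis arrays, where 14 of 14 were above 0 and 0 were called. The list mean was 7.81 and 7.53 under chow and 8.48, 8.31, 8.46 and 8.13 under LFD, so every LFD array lay above both chow arrays. Efemp1, a matrix protein, had 9.83 and 10.99 under chow and 11.90, 11.57, 11.41 and 11.40 under LFD. Its difference was 1.16 ± 0.22 with all arrays and 0.47 ± 0.19 without the epididymis arrays (adjusted p = 0.0125 and 0.407). Msln, the mesothelin gene that defines this lining layer, had 6.37 and 6.73 under chow and 7.61, 8.15, 8.32 and 7.81 under LFD, and was not called (1.42 on the log2 scale, adjusted p = 0.0574). The part of mesothelial cells in these rises was not tested. In the hepatocyte list, 22 of 25 genes had a difference above 0 with a median of 0.93, and 0 were called.

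With all arrays, 106 genes were called lower and 237 higher, and the 10 largest falls named were smaller than the 10 largest rises named. At an unadjusted p under 0.05 with a fold limit of 1.5, 1010 genes were lower and 861 higher. None of the 10 named falls was called without the epididymis arrays, where their adjusted p lay between 0.0741 (Lrrn1) and 0.557 (Aff2). Nr4a1, an orphan nuclear receptor of the immediate-early response, had 8.54 and 7.31 under chow and 7.06, 6.74, 6.74 and 6.22 under LFD, and fell by 1.24 ± 0.26 (adjusted p = 0.0254 by limma). Dusp5, a phosphatase of ERK, had 8.14 and 6.42 under chow and 5.88, 6.23, 6.35 and 5.77 under LFD, and fell by 1.22 ± 0.29 (adjusted p = 0.0394). In both, chow array 2 was only just above the LFD arrays and chow array 1 well above them. Nr4a1 was at -0.74 and Dusp5 at -0.30 without the epididymis arrays, and neither was called (adjusted p = 0.318 and 0.787). The call of Dusp5 was lost without chow array 1 or LFD array 2, 3 or 4, with differences from -2.08 to -0.36 when 1 array was left out. Nr4a1 and Dusp5 were the only 2 of 24 immediate-early and stress genes called, where 0.478% of all genes were called lower. Fos was not among them (0.42 ± 0.36, adjusted p = 0.618 by limma). Falls in which the chow arrays lay close together were those of Hook2, Mapkbp1, Lrrn1 and Nptx1. Hook2, a microtubule linker, had 6.62 and 6.35 under chow and 5.48, 5.42, 5.32 and 5.51 under LFD, and fell by 1.05 ± 0.23 (adjusted p = 0.0277). Lrrn1, a leucine-rich repeat membrane protein, had 6.40 and 6.64 under chow and 5.75, 5.40, 5.94 and 5.58 under LFD, and fell by 0.85 ± 0.17 (adjusted p = 0.0198). The groups were separate in both genes, and without the epididymis arrays neither was called (adjusted p = 0.258 and 0.0741). Mapkbp1 had 8.22 and 8.23 under chow and 6.98 to 7.73 under LFD, and Nptx1, a neuronal pentraxin, 5.51 and 5.35 against 4.28 to 4.77. The other named falls were those of Prrt1, Il17rb (the receptor of interleukin-25), Aff2, Defb3 (a beta-defensin) and Unc119b, by 0.84 to 1.15, each with chow array 1 the highest of the 6 arrays. All 17 measured ribosomal protein genes had a difference below 0 with all arrays and without the epididymis arrays, with medians of -0.20 and -0.17, and Rpl10a alone was called, lower by 0.67.

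The falls against chow array 2 alone included many pancreatic enzymes. Of 20 genes called lower there, 11 belonged to the exocrine pancreas list, and in 18 chow array 2 was at least 1 above chow array 1. The list was written after the values had been seen. A gene high only in chow array 2 must also fall in this comparison, so both counts are descriptions. Of the list genes, 15 were highest in chow array 2 among the 25 arrays. Pnliprp1, a lipase-related protein of pancreatic acini, had 4.48 and 8.84 under chow and 4.94, 4.00, 4.26 and 4.09 under LFD. Reg1 had 2.66 and 6.95 under chow and 3.38, 2.69, 2.64 and 2.70 under LFD, and Cpb1, carboxypeptidase B1, 3.00 and 7.26 against 3.77, 2.95, 3.03 and 3.35. In each of these, chow array 2 alone was high and chow array 1 matched the LFD arrays. Ctrb1, a chymotrypsinogen, and Klk1, a kallikrein, had 9.03 and 6.03 in chow array 2 and 5.70 and 3.88 in chow array 1. With all arrays none of these 5 was called (adjusted p between 0.0530 and 0.116 by limma).

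Stress, clock, proliferation and matrix genes of the panel gave no call between LFD and chow. Cdkn1a, the cell cycle inhibitor p21, had 7.85 and 8.02 under chow and 7.42, 8.52, 7.84 and 7.31 under LFD, but 9.95, 9.75 and 10.81 under HFD. Sfrp5, a Wnt antagonist of expanding adipocytes, had 4.72 and 5.80 under chow, 5.37, 7.47, 4.67 and 5.75 under LFD and 8.85, 8.91 and 10.46 under HFD. Mest, an imprinted gene tied to fat expansion, had 8.63 and 9.40 under chow, 9.68, 10.73, 9.41 and 9.56 under LFD and 11.51, 11.31 and 11.84 under HFD. In these 3 genes the HFD arrays lay above every chow and LFD array, while LFD minus chow was -0.16, 0.56 and 0.83 (adjusted p = 0.876, 0.751 and 0.142 by limma). Col6a3, a collagen VI chain, and Mki67, a proliferation marker, had LFD minus chow differences of 0.15 ± 0.19 and 0.42 ± 0.27. Among clock genes, Arntl had -0.54 ± 0.28, Dbp 0.35 ± 0.32 and Per1 -0.07 ± 0.25, and 0 of 21 clock genes were called. Of the macrophage genes Adgre1, Cd68 and Ccl2, the differences were 0.61 ± 0.27, 0.27 ± 0.37 and 0.69 ± 0.44, and none was called. With 2 chow arrays, a p that misses the threshold does not show that levels were alike.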

How the data were processed

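RNA of gonadal fat was hybridised to Affymetrix Mouse Gene 2.0 ST arrays. The authors used the Transcriptome Analysis Console 4.0.2 for all 25, per the design text; how background, summarisation and normalization were handled is not given in the sources used here. Deposited values are on a log2 scale (1.73 to 14.13), judged from their range, and were used unchanged. The table held 34472 clusters, of which 23521 had 1 gene symbol in the platform's gene table, 1814 several and 9137 none. For 1082 genes with several clusters the brightest on average was taken, which gave 22180 genes. Symbols were updated through RefSeq, whose GRCm38.p6 windows also gave the promoters.

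limma 3.58.1 in R 4.3.3 fitted 7 group means to all 25 arrays (18 residual degrees of freedom) and, without chow, LFD and HFD array 1 of 4 weeks, to 22 arrays (15). A gene was called where its p, adjusted by Benjamini-Hochberg over all genes, was under 0.05. The number of arrays limits the precision. Differences are on the log2 scale with the moderated standard error (SE), and levels are log2 values per array.

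Genes named were the 10 largest rises and 10 largest falls among called genes that were not set aside, had groups that did not overlap and kept the sign and at least 0.5 of the difference without the epididymis arrays. To these were added the 5 largest rises and falls called without those arrays, up to 4 called members of each list described, and a panel of 33 measured genes. Other names are of genes counted in small numbers, named after their values were seen. Predicted and provisional names were counted only. The comparison, the 43 lists (719 of 792 genes measured) and the panel were chosen with earlier results of these data known; the pancreas list was added after the values were seen.

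Both fits were tested on simulated independent values, in which no array carried transcripts of another tissue, unlike the chow arrays. Of 1.5-fold changes, 25.4% were recovered with all arrays and 1.49% without the epididymis arrays. Of 4-fold changes, 97% and 92.4% were recovered. Alternatives were fits of fewer arrays, quantile normalization, median centring, a filter on low values (mean under 5.14), all clusters or their mean, intensity trend with robust moderation, array weights, a fold limit, a replicate block, an epididymis covariate and leaving out each array. Further alternatives, chosen after seeing the data, left out the set-aside genes, the pancreas list, genes whose chow arrays differed by over 1, or arrays with high hepatocyte levels.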

Additional observations from a re-analysis of the deposited data

Results flagged for a closer look

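In 5 named genes, 1 LFD array lay far from the other 3 by Dixon's test at the 95% level. Chance passes this level in about 1 in 20 groups, so among the many named genes a few such arrays can arise by chance. LFD array 1 was the low array for Paqr9, at 6.90 against a nearest value of 8.16, and for Dgat2, at 12.42 against 12.87. The same array was the high 1 for the pancreatic gene Reg1, at 3.38 against 2.70. LFD array 2 was low for Cox8b, at 6.68 against 7.21, and high for the chemokine gene Ccl2, at 6.83 against 6.36.

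With all arrays, HFD at 4 weeks was higher than LFD in 6 named genes by limma's moderated test over all genes. Paqr9, which also rose from chow to LFD, differed by 1.485 on the log2 scale (adjusted p = 0.0378). The panel genes were Hmgcs1 with a difference of 1.043 (adjusted p = 0.00147), Cdkn1a with 2.398 (adjusted p = 0.00126), Sfrp5 with 3.592 (adjusted p = 0.00557), Mest with 1.708 (adjusted p = 0.00557) and Col6a3 with 0.9233 (adjusted p = 0.0126). In these 5 panel genes LFD minus chow was not called. Without the epididymis arrays, the HFD minus LFD differences of Paqr9 and Col6a3 were 1.20 and 0.70 and not called. In that fit Acaca, Fasn, Elovl6 and Dbp were called lower under HFD, by -1.715, -0.81, -1.83 and -1.38. Arntl was called higher, by 1.42.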

How the results depend on the processing

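The comparison rests on 2 chow arrays, each with transcripts of another organ. The number of called genes with all arrays (343) was 0 with the arrays of both groups alone, 1 with chow and 4-week arrays, 116 after centring on array medians, 559 with the filter on low values, 213 over all clusters, 6 with array weights, 1871 with unadjusted p and a fold limit (861 higher, 1010 lower), 24 with the epididymis mean as covariate, 59 without both replicate 1 arrays and 7 without the arrays of high hepatocyte mean. Leaving out single arrays gave 29 (chow array 1) to 4098 (chow array 2) calls. It was 335 to 389 for the mean of clusters, quantile normalization, intensity trend and leaving out set-aside genes, 304 with the fold limit and 246 among genes whose chow arrays lay within 1. The cause of these moves was not tested, except that fewer arrays leave fewer degrees of freedom. Without the epididymis arrays the number (63) was 9 with both groups alone, 21 with chow and 4-week arrays, 96 with array weights, 954 with unadjusted p and a fold limit and 30 among genes with chow arrays within 1. It was 44 to 84 for the other settings, and 45 to 72 when an LFD array was left out. The set-aside genes (320) were 382 by the HFD arrays alone and 622 at a limit of 0.5.

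With the replicate number as a block, 125 genes were called, 120 of them among the 343. The labels do not say that a number marks shared mice or days, and same-numbered arrays deviated together at 0.251 and 0.161 in the only 2 pairs.

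Among named genes, 1161 of 1609 values under another setting kept their direction and side of the threshold, and 21 no longer had the sign they had with all arrays, 20 on the other side of 0 and 1 (Col1a1 without chow array 1) at 0. All 21 were in genes not called with all arrays. Leaving out 1 array in turn gave ranges of -0.27 to 2.13 for Acly, -0.94 to 2.94 for Elovl6, -1.16 to 1.24 for Sqle, -0.18 to 1.00 for Adipoq, -0.10 to 1.71 for Pparg, -0.39 to 1.20 for Pck1, -0.41 to 0.84 for Nr1d1, -1.02 to 0.12 for Fkbp5, -0.242 to 0.0217 for Col1a1, -0.185 to 0.035 for Per1 and -0.24 to 0.07 for Ucp1. Chow array 1 or 2 gave each end of these, except that LFD arrays 3 and 4 did for Col1a1. With the replicate block Sqle was at -0.0611. With the epididymis covariate Pck1 was at -0.16 and Nr1d1 at -0.20. Without both replicate 1 arrays Adipoq was at -0.16, Pck1 at -0.29, Nr1d1 at -0.18, Fkbp5 at 0.09 and Col1a1 at 0.0467. The cause was not tested.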
